A study of Caenorhabditis elegans with 10 samples.

Results

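Peaks of the heterochromatin proteins HPL-1 and HPL-2 lay over 4 regulators of stress and immunity in Caenorhabditis elegans L4 larvae: daf-16, atfs-1, dnj-27 and tir-1. These are 4 of 19971 protein-coding genes in the RefSeq table of assembly WBcel235. They were named for their roles and selected on the deposited peak coordinates, which put a peak over each of them. For each, every peak that overlapped the gene body or 1 kb on either side by at least 1 bp was taken, which gave 11 of 4583 peaks. Since peaks chose the genes, the presence of a peak is a description here and was not tested.

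The assay was DamID-seq, in which a chromatin protein is fused to the DNA adenine methyltransferase Dam and leaves methylated GATC sites near the places it visits. The fusions were HPL-1::Dam in intestine (strain MRS579), HPL-2::Dam in intestine (MRS580) and HPL-2::Dam in hypodermis (MRS578), with GFP::Dam in intestine (BN1051) and GFP::Dam in hypodermis (BN561) as controls for open chromatin. Each group had 2 libraries from L4 larvae grown for 48 h at 20 °C. Every group thus carried a Dam fusion, and the promoter or recombinase that restricts it to a tissue is not given in the sources used here. Animals were grown in bulk, so each library pools many larvae, and nothing says whether replicates were separate cultures. The tissue label could not be checked against marker genes, since peak lists hold no expression values.

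For each HPL fusion the authors deposited 1 peak list at an FDR of 0.05, made from an average over replicates and relative to Dam. The lists hold 1346 peaks for HPL-1 intestine, 1665 for HPL-2 intestine and 1572 for HPL-2 hypodermis. How many libraries each average took in is not stated, and the replicate tag in the list names matches no labelled replicate. No value below has a replicate error, and library depth is unknown. Peak scores are the authors' own on a scale that is not stated, so a score is read against its own list. Ranks count from the highest score of that list. The list names say only that each was set against Dam, which was taken here to be GFP-Dam of the same tissue. On that reading both intestine lists share their control libraries, so that agreement between them is not independent.

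HP1-family proteins such as HPL-1 and HPL-2 bind methylated histone H3 and are known for their part in heterochromatin and gene silencing. DAF-16 is the FOXO transcription factor at the end of the insulin pathway: signalling from the insulin receptor DAF-2 through the AKT kinases keeps it out of the nucleus, and when that signal is low it switches on genes of stress resistance and long life. ATFS-1 is the bZIP factor that drives the response to unfolded proteins in mitochondria, normally imported into mitochondria and degraded, and found in the nucleus when import falters. DNJ-27 is a protein of the endoplasmic reticulum with a DnaJ domain and thioredoxin domains. TIR-1 is the TIR-domain adaptor at the head of the p38 MAP kinase cascade of NSY-1, SEK-1 and PMK-1, a main route of pathogen defence in intestine and epidermis.

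The 4 genes differed in which lists reached them. HPL-2 intestine had a peak over all 4 genes, against a background of 8.31% of protein-coding genes with a peak in the body or within 1 kb. HPL-1 intestine had a peak over 3, all but tir-1, against 6.93% of protein-coding genes. HPL-2 hypodermis had a peak over 3, all but atfs-1, against 8.1% of protein-coding genes. Since the rule used these peaks, nothing is read from the counts. Daf-16 and dnj-27 were in all 3 lists, as were 1.3% of protein-coding genes. The pattern of tir-1, HPL-2 in both tissues without HPL-1, was shared by 1.65%, and that of atfs-1, both proteins in intestine without a hypodermis peak, by 1.06%. Of the 11 peaks, 10 lay wholly within the gene, and 0 covered another protein-coding gene.

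**Figure D1:**
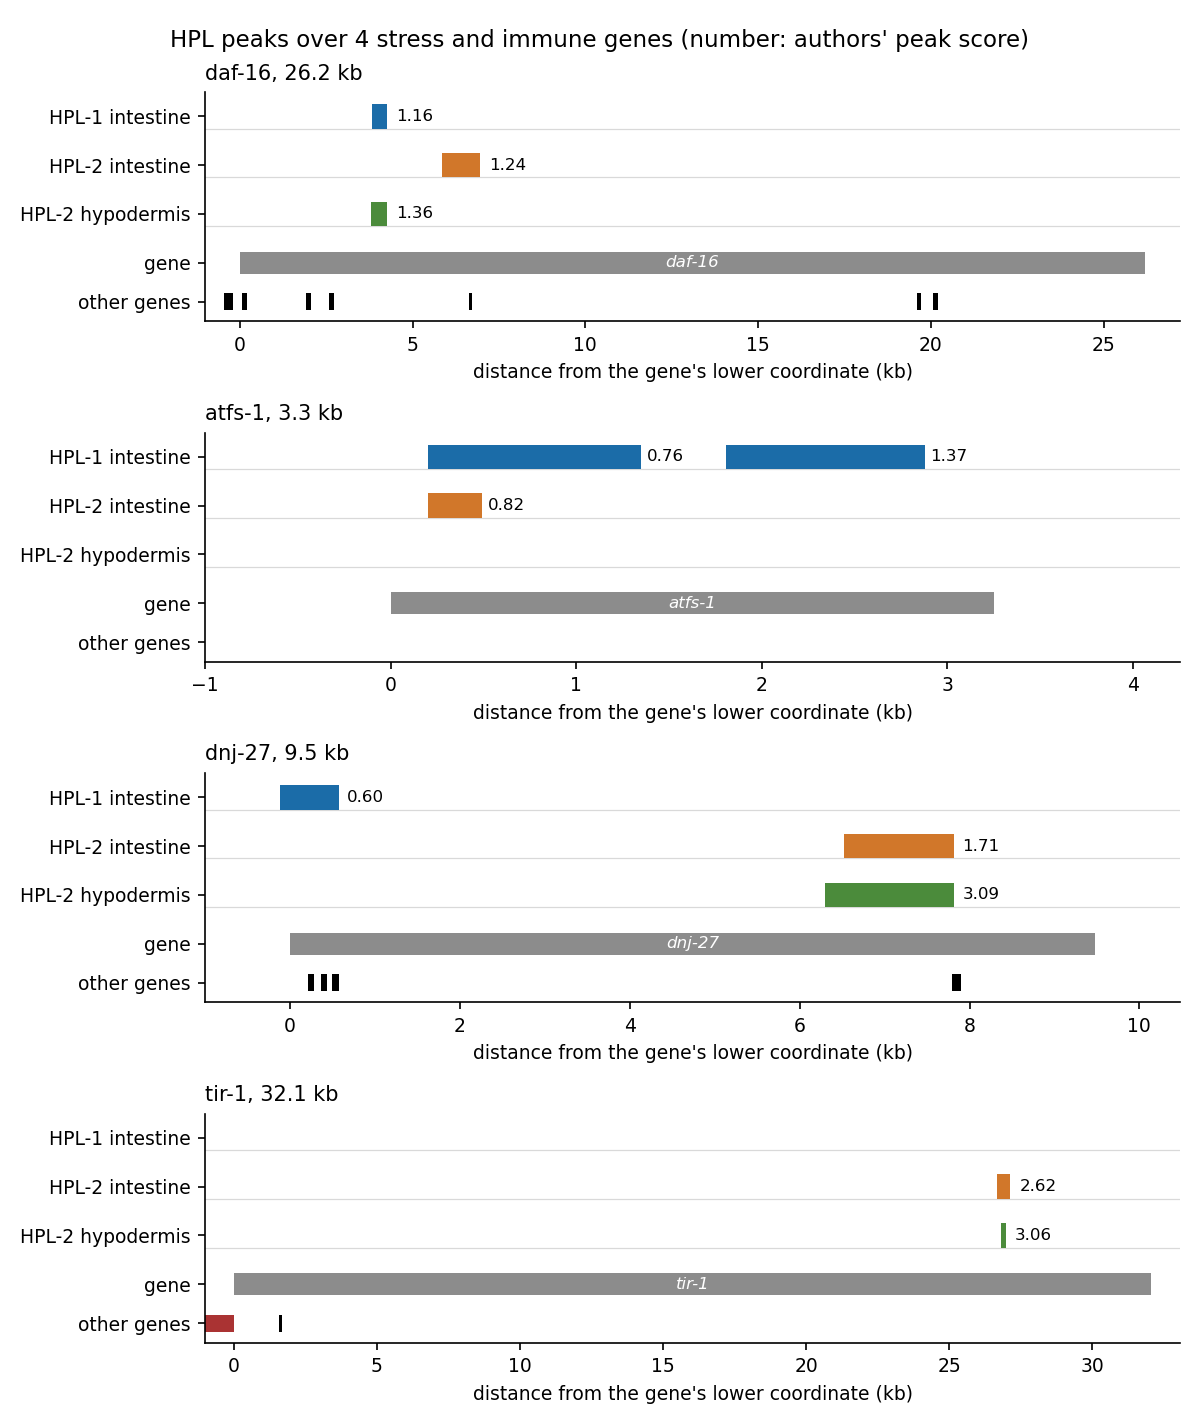
Peaks of the 3 lists (coloured bars, with the authors' score) over each gene (grey bar), as distance in kb from the end of the gene with the lower coordinate. Black marks are non-coding RNA genes and the red mark is rpl-3. The daf-16 peaks of HPL-1 intestine and HPL-2 hypodermis share a place, the HPL-2 peaks of dnj-27 and of tir-1 line up between tissues, and atfs-1 holds 2 HPL-1 peaks.

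The insulin-pathway gene daf-16 (R13H8.1, chromosome I, 10750498 to 10776703) spans 26.2 kb and has 11 RefSeq transcripts. The reference used here gives neither strand nor exons, so positions are distances from the end with the lower coordinate. The HPL-1 intestine peak (I, 10754329 to 10754759) began 3.83 kb into the gene, scored 1.16 and had an FDR of 0.00252. It ranked 45 of 1346. The HPL-2 hypodermis peak (I, 10754291 to 10754759) contained that interval whole and ended at the same base. Its score was 1.36 and its FDR 0.000579, and it ranked 1325 of 1572. The HPL-2 intestine peak (I, 10756341 to 10757444) lay apart, 1581 bp from the hypodermis peak, with a score of 1.24, an FDR of 0.0123 and rank 374 of 1665.

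By score, the interval over daf-16 was thus among the high ones of the HPL-1 intestine list and among the low ones of the HPL-2 hypodermis list. By FDR, counted from the lowest, it stood at 454 of 1346 in HPL-1 intestine and at 374 of 1572 in HPL-2 hypodermis, so that this contrast holds for the score alone. Both peaks were narrow, 431 bp for HPL-1 intestine and 469 bp for HPL-2 hypodermis, and the HPL-2 intestine peak was 1104 bp wide. Among peaks no wider than itself the HPL-1 peak was the 8th highest of 334, and the hypodermis peak the 136th of 187. At an FDR of 0.01 the HPL-2 intestine peak over daf-16 was lost, and the HPL-1 intestine and HPL-2 hypodermis peaks were kept. The 3 peaks covered 1.64% of the gene for HPL-1 intestine, 4.21% for HPL-2 intestine and 1.79% for HPL-2 hypodermis, whereas the median gene with a peak in its body was covered over 14.4%, 17.8% and 23.8% in the same order. These medians are over genes of all lengths, and 99.5% of protein-coding genes are no longer than daf-16. Of 8 non-coding RNA genes within 1 kb of the gene or inside it, R13H8.4 lay under a peak, that of HPL-2 intestine.

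The mitochondrial stress gene atfs-1 (ZC376.7, chromosome V, 14194446 to 14197699) is the shortest of the 4 at 3.25 kb, with 4 RefSeq transcripts. Of the 4 genes it had the largest share of its length under HPL-1 peaks. The higher HPL-1 intestine peak (V, 14196255 to 14197324) scored 1.37 with an FDR of 2.07e-06 and ranked 11 of 1346. By FDR it stood at 67 of 1346. A second HPL-1 peak (V, 14194645 to 14195794) scored 0.76 with an FDR of 0.00227 and ranked 420. Together they covered 68.2% of the gene. Of 313 genes of 2 to 5 kb with an HPL-1 intestine peak in the body, 18 (5.75%) held 2 or more such peaks, and the median cover was 16.2%. Only 3 of the 313, atfs-1 included, were covered to this extent. Among 966 genes of any length with an HPL-1 intestine peak in the body, 92.1% were covered to this extent or less.

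HPL-2 intestine had a single peak at atfs-1 (V, 14194645 to 14194938), 294 bp wide, which scored 0.82 with an FDR of 0.022 and ranked 1127 of 1665. It began at the same base as the lower HPL-1 peak, and these lists were taken to share their control libraries. At an FDR of 0.01 it was lost, and both HPL-1 peaks were kept. No hypodermis peak lay within the window. The closest one (V, 14177372 to 14178753, score 2.29) was 15.7 kb away, over cest-2.3 and ceh-74. A missing peak says that no interval passed the authors' threshold there, not that HPL-2 was absent.

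The endoplasmic reticulum gene dnj-27 (Y47H9C.5, chromosome I, 11877803 to 11887278) spans 9.48 kb and has 2 RefSeq transcripts. HPL-2 lay at 1 place in both tissues and HPL-1 at another. The HPL-2 hypodermis peak (I, 11884107 to 11885624) scored 3.09 with an FDR of 1.93e-05 and ranked 11 of 1572. The HPL-2 intestine peak (I, 11884324 to 11885624) lay wholly inside it, ended at the same base, scored 1.71 with an FDR of 0.000764 and ranked 71 of 1665. Both were thus near the top of their lists by score, and these lists were taken to have separate controls. By FDR they stood lower, at 178 of 1572 in hypodermis and 619 of 1665 in intestine. Both peaks covered the lower end of the microRNA gene mir-5545, which extends past their common end.

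The HPL-1 intestine peak of dnj-27 (I, 11877681 to 11878381) lay 5942 bp from the HPL-2 intestine peak, across the gene's lower end, and started 122 bp outside the gene. Its score was 0.6 with an FDR of 0.00574, at rank 878 of 1346. It covered 4 non-coding RNA genes, Y47H9C.16 to Y47H9C.19. Being in all 3 lists therefore meant different stretches of dnj-27 for HPL-1 and for HPL-2. The peak nearest to the 1 kb limit from outside, for any of the 4 genes, also belonged to dnj-27: a hypodermis interval (I, 11874769 to 11875362, score 1.42) ended 2441 bp from the gene, over no annotated gene. All 11 member peaks reached into a gene body, so none was taken through the flanks alone.

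The immune adaptor gene tir-1 (F13B10.1, chromosome III, 3869590 to 3901642) is the longest of the 4 at 32.05 kb, with 8 RefSeq transcripts. HPL-2 lay at 1 short stretch of it in both tissues. The HPL-2 intestine peak (III, 3896268 to 3896717) was 450 bp wide, scored 2.62 with an FDR of 2.37e-10 and ranked 3 of 1665. The HPL-2 hypodermis peak (III, 3896387 to 3896567) was 181 bp wide and lay inside it, with a score of 3.06, an FDR of 1.93e-05 and rank 14 of 1572. These were narrow peaks with high scores. By FDR they stood lower, at 72 of 1665 in intestine and 178 of 1572 in hypodermis. Among peaks no wider than itself, each had the highest score of its list, out of 450 in HPL-2 intestine and out of 36 in HPL-2 hypodermis.

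Tir-1 was covered over 1.4% in HPL-2 intestine and 0.565% in HPL-2 hypodermis, since the peaks were short and the gene long. The interval began 26.7 kb from the lower end of the gene in HPL-2 intestine. The ribosomal protein gene rpl-3, whose annotated end lies 3 bp from that lower end, was not under a peak. No HPL-1 intestine peak lay within the window, and the closest (III, 3929617 to 3930343, score 0.76) was 27.98 kb away over F37A8.2. HPL-2 had no other intestine peak within 100 kb of tir-1 on either side.

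**Figure D2:**
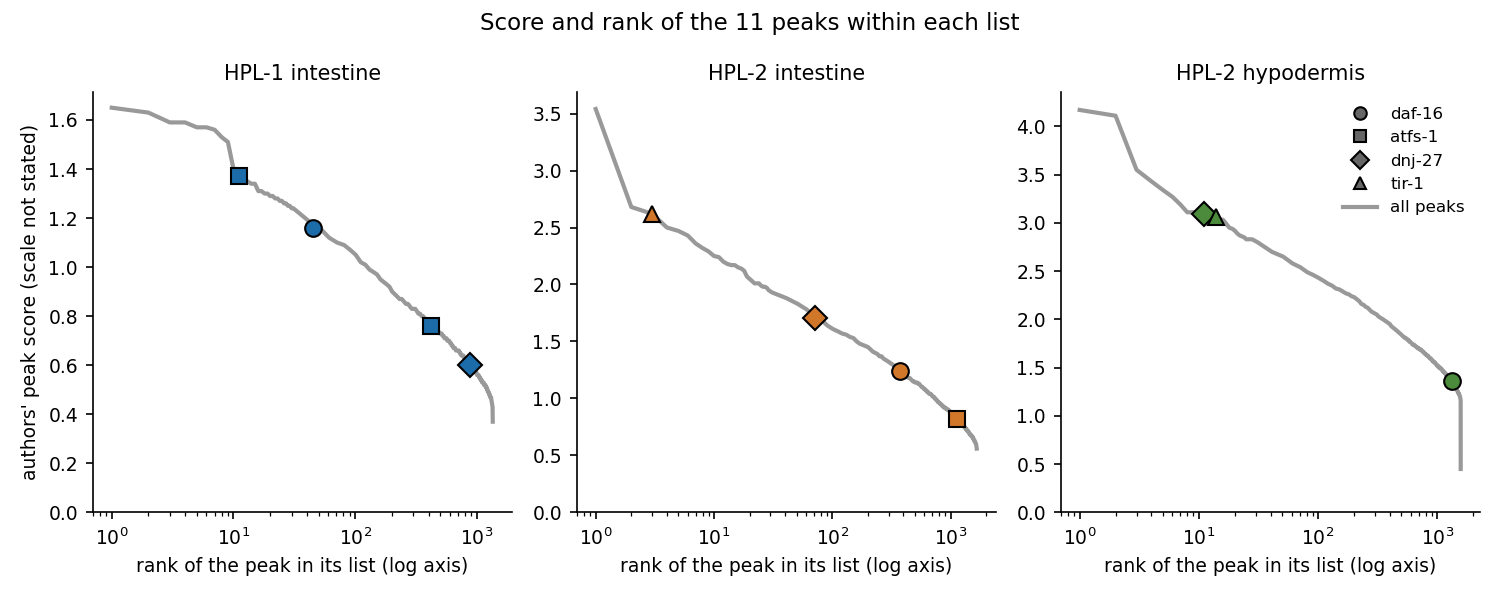
Score of each of the 11 peaks (symbols) against its rank in its own list (log axis), with the curve of all peaks of that list in grey. Tir-1 (rank 3) and dnj-27 (rank 71) stand high in HPL-2 intestine, dnj-27 (11) and tir-1 (14) in HPL-2 hypodermis, and atfs-1 (11) and daf-16 (45) in HPL-1 intestine.

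The order of the 4 genes within a list therefore differed between lists, taking the best peak of each gene. In HPL-1 intestine the scores ran from 1.37 for atfs-1 through 1.16 for daf-16 to 0.6 for dnj-27. In HPL-2 intestine they ran from 2.62 for tir-1 through 1.71 for dnj-27 and 1.24 for daf-16 to 0.82 for atfs-1. In HPL-2 hypodermis dnj-27 at 3.09 and tir-1 at 3.06 were followed by daf-16 at 1.36. Without replicate values it cannot be said which neighbours in these orders differ beyond their error, and dnj-27 and tir-1 in hypodermis lay 3 ranks apart.

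Where the hypodermis list and an intestine list both had a peak at one of the genes, the places were compared. These lists were taken not to share controls. HPL-2 hypodermis and HPL-2 intestine both had peaks at daf-16, dnj-27 and tir-1, and the peaks overlapped at dnj-27 (1301 bp) and tir-1 (181 bp) but not at daf-16. Over all protein-coding genes with peaks of both lists, 82.8% held an overlapping pair. HPL-2 hypodermis and HPL-1 intestine both had peaks at daf-16, where they overlapped by 431 bp, and at dnj-27, where they lay 5725 bp apart. The same share over all genes was 78.1% for these lists. In each of the 3 overlaps the shorter peak lay wholly inside the longer one.

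Gene length bears on how often a gene meets a peak. The share of protein-coding genes with an HPL-2 intestine peak was 5.95% under 2 kb, 7.3% at 2 to 5 kb, 14.6% at 5 to 10 kb, 21.6% at 10 to 20 kb and 41.5% at 20 kb or more. Daf-16 and tir-1 are in the last class of 193 genes, in which 27.5% met an HPL-1 intestine peak, 35.8% an HPL-2 hypodermis peak, 14.5% all 3 lists and 57.5% at least 1. Dnj-27 is in the class of 5 to 10 kb, in which 1.68% of 2203 genes were in all 3 lists. For atfs-1 the class of 2 to 5 kb gave 6.41% for HPL-1 intestine, 7.3% for HPL-2 intestine and 7.27% for HPL-2 hypodermis, close to the values over all genes.

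**Figure D3:**
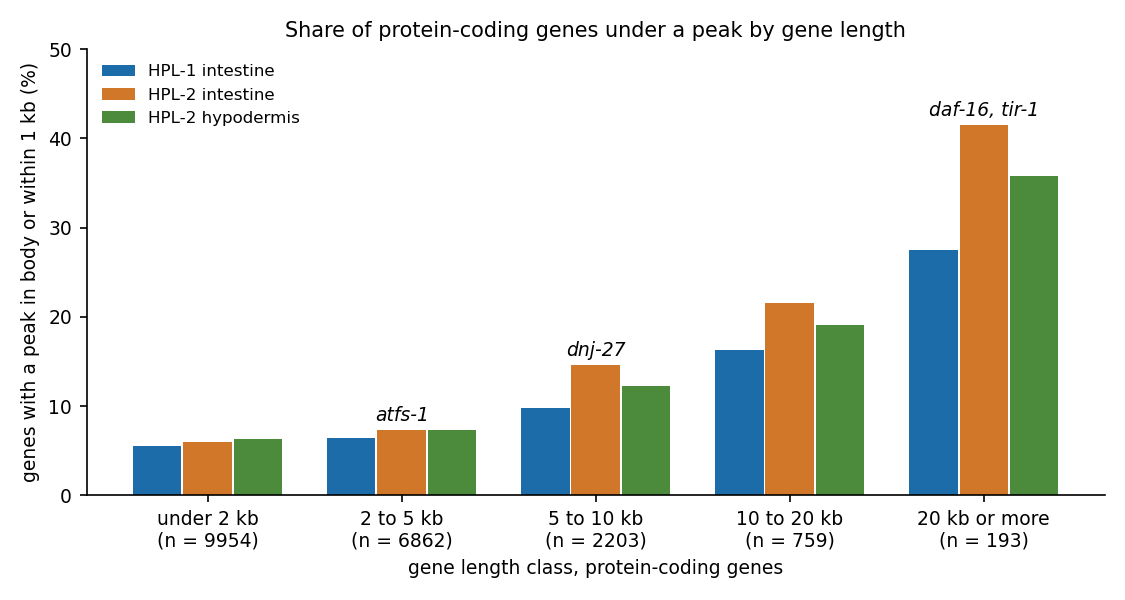
Percent of protein-coding genes with a peak in the body or within 1 kb (bars, 1 colour per list) in 5 classes of gene length. The class of each of the 4 genes is marked above its bars, and shares reach 41.5% in the class of daf-16 and tir-1.

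With each chromosome divided into 3 equal parts, all 4 genes lay in an outer part, as did 62.2% of protein-coding genes, 70.7% of those with an HPL-1 intestine peak, 87.1% of those with an HPL-2 intestine peak and 87.8% of those with an HPL-2 hypodermis peak. Atfs-1 sat near the border of its part, at 67.8% of the length of chromosome V. Within 100 kb on either side, own peaks included, there were 1 to 3 HPL-1 intestine peaks, 1 to 4 HPL-2 intestine peaks and 2 to 6 HPL-2 hypodermis peaks. The median over all protein-coding genes was 2 in each list. The 6 hypodermis peaks were those around dnj-27, a number that 85.5% of protein-coding genes did not exceed.

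Other genes with the same lists and the closest score percentiles were taken from all protein-coding genes. For tir-1, over 2 lists, these were gfrl-1 (scores 2.24 in HPL-2 intestine and 2.94 in HPL-2 hypodermis), the exoribonuclease gene xrn-1 (2.68 and 4.11) and acbp-6 (2.29 and 2.86), with summed percentile differences of 0.799, 0.823 and 0.933 points. For dnj-27, over 3 lists, they were lido-8 and lido-9, which had the same scores, and the chemoreceptor gene sri-31, at 5.91 points for each lido gene and 8.69 points for sri-31. For atfs-1 the kinase gene mig-15 came closest, at 3.46 points, with an HPL-1 intestine score of 1.26 and an HPL-2 intestine score of 0.84. Next to it came eif-2alpha and the mitochondrial prohibitin gene phb-1, at 11.6 points each and with equal scores. Eif-2alpha and phb-1 both lie on chromosome I, and lido-8 and lido-9 both on chromosome II. Whether the genes of each pair met the same peaks was not checked, so a pair may not be 2 separate likenesses. For daf-16 no gene came near, and the closest were grd-11, gcy-23 and dip-2 at 14.9, 16.1 and 17.8 points, out of 258 other genes in all 3 lists.

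Other genes of the same pathways met peaks at shares near the background, and slightly below it in the main setting. Over 7 gene lists without the 4 genes, 13 of 213 genes (6.1%, 95% exact binomial interval 3.29% to 10.2%) met an HPL-1 intestine peak, against 6.93% of all protein-coding genes. For HPL-2 intestine it was 15 (7.04%, 3.99% to 11.3%), against 8.31%, and for HPL-2 hypodermis 12 (5.63%, 2.94% to 9.63%), against 8.1%. In all, 29 of the 213 genes were in at least 1 list (13.6%), against 17% of protein-coding genes. These intervals treat each gene as an independent draw. The genes are not all independent: nlp-30, nlp-31 and nlp-34 met the same HPL-1 intestine peak, and ins-19 and ins-31 the same hypodermis peak. The lists were also chosen with earlier results of these data known. The intervals are thus a rough guide to counting error and cover no other error.

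Among the insulin pathway genes besides daf-16, 4 of 21 met a peak in at least 1 list (19%, against 17% of protein-coding genes). The insulin receptor gene daf-2, 46333 bp long, had HPL-2 in both tissues, with a score of 2.66 and rank 48 of 1572 in hypodermis (III, 3026758 to 3028780), and 1.06 and rank 629 of 1665 in intestine (III, 3026837 to 3027654). Like daf-16 it is over 20 kb long, a class in which 35.8% of genes met a hypodermis peak and 41.5% an HPL-2 intestine peak. HPL-1 intestine had peaks over ist-1, an insulin receptor substrate gene (score 0.67), near the 14-3-3 gene par-5 (0.59) and over smk-1 (0.47), a cofactor of DAF-16. They ranked 637, 909 and 1276 of 1346 in that order. The smk-1 peak had an FDR of 0.0367, the highest of its list, and was lost at an FDR of 0.01. Both genes of the AKT kinases and the PI3-kinase gene age-1 had no peak in any list. Of 39 insulin-like ligand genes, 3 met a hypodermis peak, ins-33 in its flank (score 2.25) and the neighbours ins-19, in its body, and ins-31, in its flank, through 1 and the same peak (1.25). This is 7.69% of the ligand genes, against 8.1% of protein-coding genes. The median length of the ligand genes was 655 bp, and 6.37% of genes under 2 kb met a hypodermis peak. With the gene body alone 1 of the 3 was left, and the share of all protein-coding genes was 5.92%. In the intestine lists 0 ligand genes met a peak, against 5.54% of genes under 2 kb for HPL-1 and 5.95% for HPL-2.

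No other gene of the mitochondrial stress list met a peak, 0 of 22 in each list, against 6.93% of protein-coding genes for HPL-1 intestine, 8.31% for HPL-2 intestine and 8.1% for HPL-2 hypodermis. For 22 genes these shares amount to few genes, so the zeros say little. The list holds the chaperone genes hsp-6 and hsp-60, which ATFS-1 is known to induce. With 2 kb flanks 1 of the 22 met an HPL-2 intestine peak and 2 met a hypodermis peak, against 10.5% and 10.3% of protein-coding genes. Of 27 other genes of the endoplasmic reticulum list, 2 met a peak within 1 kb in at least 1 list (7.41%, against 17% of protein-coding genes). Dnj-28, a gene for another DnaJ protein, had the same interval in both HPL-2 lists (I, 3000793 to 3001332), with scores of 1.66 in hypodermis and 0.97 in intestine. Pdi-6, a protein disulphide isomerase gene, had a peak of 0.69 in HPL-2 intestine, with an FDR of 0.022 and rank 1440 of 1665. This peak was lost at an FDR of 0.01 and with an overlap of 100 bp, and either setting left 1 of the 27 genes in that list. The share of all protein-coding genes was then 5.71% and 7.95% in the same order. The stress sensor genes ire-1, pek-1 and atf-6 and the transcription factor gene xbp-1 had no peak in any list.

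In immune signalling, 6 of 31 genes besides tir-1 met a peak in at least 1 list (19.4%, against 17% of protein-coding genes). Among them dkf-2 (40820 bp), egl-8 (22887 bp), hlh-30 (19990 bp) and tol-1 (17603 bp) are long, and at least 1 list reached 38.3% of genes of 10 to 20 kb and 57.5% of genes of 20 kb or more. The Toll receptor gene tol-1 and the protein kinase D gene dkf-2 were in all 3 lists. The best tol-1 peaks scored 0.69 for HPL-1 intestine, 1.24 for HPL-2 intestine and 1.36 for HPL-2 hypodermis. The first and last of these overlapped, and the HPL-2 intestine peak lay apart. Dkf-2 scored 0.73, 0.69 and 1.4 in the same order, with its best peaks at 3 different places. The phospholipase C gene egl-8 (0.55 for HPL-1, 1.04 for HPL-2) and the TFEB-related transcription factor gene hlh-30 (0.62 and 0.87) were in both intestine lists. In each gene the best HPL-1 and HPL-2 peaks lay at different places. Trf-1, the TRAF homologue, had a hypodermis peak of 1.9, and the MAP kinase gene kgb-1 an HPL-2 intestine peak of 0.8. At an FDR of 0.01, 1 of the 31 genes was left in HPL-1 intestine, against 4 at 0.05, and 3 in HPL-2 intestine, against 5. The share of all protein-coding genes fell as well, from 6.93% to 3.87% for HPL-1 intestine and from 8.31% to 5.71% for HPL-2 intestine. The HPL-1 peaks named here of tol-1, dkf-2, egl-8 and hlh-30 were lost at this FDR. The kinase genes nsy-1, sek-1 and pmk-1 and the transcription factor gene atf-7, all downstream of TIR-1, had no peak in any list. Of the 31, 5 had an HPL-2 intestine peak and 3 a hypodermis peak, and tir-1 scored above these in both lists. The highest of them were tol-1 at 1.24 in intestine and trf-1 at 1.9 in hypodermis. Since tir-1 was selected on its peaks, nothing is read from this order.

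**Figure D4:**
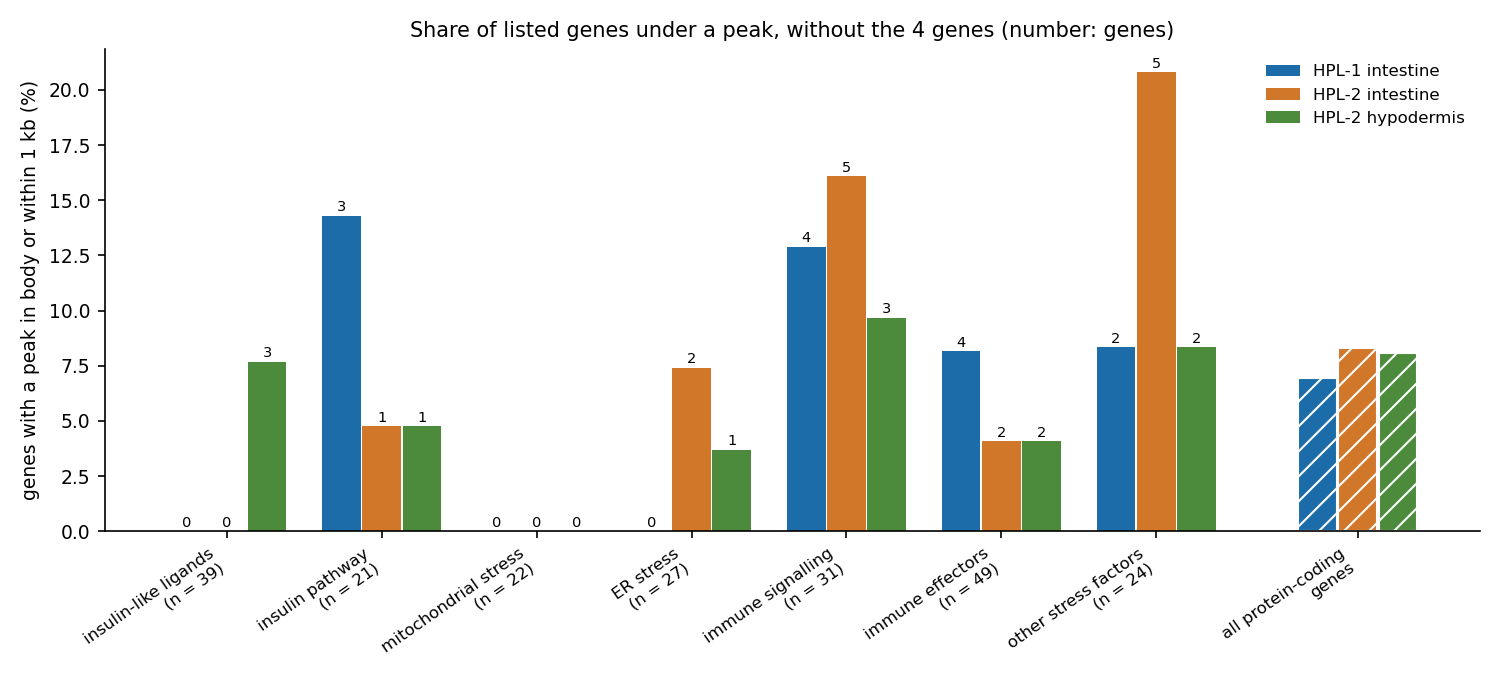
Percent of the genes of each of 7 lists, without the 4 genes, that had a peak in the body or within 1 kb (bars, with the number of genes above), and the same over all protein-coding genes (hatched). The mitochondrial stress list has 0 genes in every peak list, and the other stress factors reach 5 of 24 genes in HPL-2 intestine.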

How the data were processed

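DamID-seq libraries of 10 samples in 5 groups were processed by the authors into 3 peak lists. Bowtie2 2.3.4, SAMtools 1.9, R 3.4.3 and the WBcel235/ce11 assembly are named in the submitters' processing notes, and the peak caller is not given in the sources used here. The other columns of each deposited list that were used hold the coordinates of a peak and its FDR. The peak score is the authors' deposited score, averaged over replicates and set against Dam before calling, per the names of the deposited lists, so no replicate error, library depth or test between groups could be had. Dam was taken to be the GFP-Dam group of the same tissue. Peak edges are those of GATC fragments, and strong GFP-Dam signal makes a call at that place less likely.

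Peaks were matched to RefSeq genes (46890 genes, 19971 protein coding) with Python 3.11.15, pandas 2.3.3 and numpy 2.4.6. The overlap code was tested on simulated data. No genome or sequence table was used, so no sequence is shown. The 4 genes and the 7 gene lists were chosen with earlier results of these data known. Of 219 listed symbols 217 matched; ins-38 and atf-5 did not. From each list, up to 3 genes with the highest score per peak list were named, and other listed genes named were picked after their values were seen. The bounds of the length classes, and the comparison with peaks no wider, were also chosen after seeing the data. Alternatives were the gene body alone, 2 kb flanks, an FDR of 0.01, an overlap of 100 bp, the peak midpoint, 1 gene per peak, and, for overlapping pairs, 50% overlap and peaks of 500 bp.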

Additional observations from a re-analysis of the deposited data

How the results depend on the processing

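At an FDR of 0.01 the HPL-1 intestine and HPL-2 hypodermis counts of the 4 genes stayed at 3. The HPL-2 intestine count fell from 4 to 2, since the peaks of daf-16 and atfs-1 did not pass. The other 5 alternatives changed none of these counts, but they could hardly have done so. All 11 peaks reached a gene body, the narrowest was 181 bp wide and 0 covered another protein-coding gene. The closest peaks of the missing lists lay 15.7 kb from atfs-1 and 27.98 kb from tir-1. The overlapping pairs, 1 gene for HPL-2 hypodermis with HPL-1 intestine and 2 with HPL-2 intestine, did not change at an FDR of 0.01 or with peaks of 500 bp. The setting of 50% overlap could not change them, since the shorter peak lay wholly inside the longer one. Of the 213 pathway genes, 13 met an HPL-1 intestine peak, against 8 with the gene body alone, 7 at an FDR of 0.01 and 8 with 1 gene per peak. The share of all protein-coding genes was 6.93%, against 4.84%, 3.87% and 4.43% under these alternatives in the same order. The HPL-2 counts stayed within 1.5 times. In HPL-2 intestine the counts were 13, 10 and 13 in the same order, against 15 in the main setting. The share of all protein-coding genes was 6.11%, 5.71% and 5.49%, against 8.31%. In HPL-2 hypodermis the counts were 9, 12 and 9, against 12, and the share 5.92%, 5.1% and 5.13%, against 8.1%. At an FDR of 0.01 the 12 hypodermis genes (5.63%) thus lay slightly above the background. So did the 13 intestine genes (6.1%) with 1 gene per peak. For single gene lists, 104 of 126 recomputed counts stayed within 1.5 times, 19 were lower and 3 higher. The 3 higher ones came with 2 kb flanks. No paired analysis was possible because the deposited lists average the replicates, and for the same reason no replicate could be left out. Library depth is unknown, so what it limits cannot be stated.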

Other observations

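Among 49 immune effector genes, 6 met a peak in at least 1 list (12.2%, against 17% of protein-coding genes). The median length of the 49 genes was 789 bp, and 13.3% of genes under 2 kb met a peak in at least 1 list. The lysozyme gene lys-9 was in all 3 lists, with scores of 0.76 in HPL-1 intestine, 0.65 in HPL-2 intestine and 1.4 in HPL-2 hypodermis, and the peaks of both intestine lists reached its flank alone. The antimicrobial peptide genes nlp-30, nlp-31 and nlp-34 lay under or beside a single HPL-1 intestine peak (V, 3979985 to 3981545, score 0.58). Lys-10 had an HPL-2 intestine peak of 0.95 in its flank and the saposin-like gene spp-17 a hypodermis peak of 1.42 in its flank. With the gene body alone, the effector counts were 1 in HPL-1 intestine, 0 in HPL-2 intestine and 1 in HPL-2 hypodermis, against 4, 2 and 2 with 1 kb on either side. The share of all protein-coding genes with a peak in the body was 4.84%, 6.11% and 5.92% in the same order.

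Among 24 other stress factors, 8 met a peak in at least 1 list (33.3%, against 17%), 5 of them in HPL-2 intestine (20.8%, against 8.31% of protein-coding genes). The median length of the 24 genes was 6800 bp, and 14.6% of genes of 5 to 10 kb met an HPL-2 intestine peak. Daf-5, a gene of TGF-beta signalling in dauer formation, scored 1.35 there with an FDR of 2.73e-14 over a wide interval (II, 14034300 to 14036416). The GATA factor gene elt-3 scored 0.88 in HPL-2 intestine and 0.79 in HPL-1 intestine, with its best peaks at different places. In HPL-2 intestine the TOR complex gene rict-1 scored 0.71, crtc-1 0.68 and the oxidative stress factor gene skn-1 0.66. At an FDR of 0.01 the count in HPL-2 intestine was 3 of 24, and the share of all protein-coding genes was 5.71%. In HPL-2 hypodermis the peaks were over egl-9, the oxygen-sensing prolyl hydroxylase gene (score 1.76), and let-363, the TOR kinase gene (1.22), and nhr-49 had an HPL-1 intestine peak of 0.64 in its flank.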
